A study of Mus musculus with 108 samples.

Results

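The genes of the synaptic vesicle described here, 10 in all, were followed through the developing mouse brain: the synapsins Syn1 and Syn2, synaptophysin (Syp), the synaptotagmins Syt1 and Syt2, the SNARE genes Snap25, Vamp1 and Vamp2, and the vesicular glutamate transporters Slc17a6 (VGLUT2) and Slc17a7 (VGLUT1). They were chosen by name, as the rows of the deposited count table whose Ensembl identifiers carry these symbols. The 10 rows were found among 53465 genes, and each passed the filter on low counts in every comparison made.

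The study sequenced ribosome-depleted total RNA with a stranded kit from 3 regions, the cortex (CX), the hippocampus (HIP) and the cerebellum (CB), of wild type (WT) and heterozygous Cul3+/- mice, 1 library per region and mouse. Brains were taken at embryonic day E17.5, at postnatal day P7 and from adults, labelled P35 (4–6 weeks in the study's methods), with 6 mice of each genotype at each period. Both genotypes had the same background, given as C56Bl/6N in the labels and C57BL/6N in the methods, and received no treatment. The Cul3+/- mice carried a CRISPR/Cas9 frameshift insertion in Cul3, which encodes the scaffold of an E3 ubiquitin ligase, and they descended from a single founder bred with WT mice, so they are 1 line carrying 1 allele. Sex was not used here, and no cell type was isolated.

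For 2 adult mice, P35_22 and P35_23, the labels and the study's supplementary quality table give opposite genotypes. Their 6 libraries were left out, which leaves 34 of 36 mice and 5 adult mice of each genotype. Library totals in the table ran from 15126114 to 44411282 counts, and no pair of replicates among 270 was identical. Of the libraries used, E17.5 HIP WT replicates 1 and 4 had the lowest totals, 15126114 and 15264678, and the others had at least 24811335. Cul3 was lower in mutant mice in every dataset, with group means of 175 to 210 CPM, the count scaled to a common library size by edgeR's TMM factors, in WT and 92.9 to 121 CPM in Cul3+/- mice. The regions carried their markers: the summed level of 4 cerebellar granule cell genes was 4004 to 4905 CPM in adult WT CB against 12.9 to 13.8 CPM in CX and 25.3 to 30.3 CPM in HIP, and that of 4 hippocampal granule and CA cell genes was 448 to 566 CPM in adult HIP against 142 to 161 CPM in CX. At E17.5 the granule cell list did not tell CB (160 to 297 CPM) from HIP (157 to 284 CPM). The hippocampal granule and CA cell list was Prox1, Zbtb20, Wfs1 and Spink8.

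A synaptic vesicle is filled with transmitter, held in a cluster near the release site, docked, fused with the membrane when calcium enters, and retrieved. Slc17a6 and Slc17a7 load glutamate into the vesicle, and neurons of thalamus, brainstem and the deep cerebellar nuclei are known for the first, those of adult cortex, hippocampus and the cerebellar granule layer for the second. Synapsins tether vesicles to one another and to actin, and synaptophysin is the abundant membrane protein by which vesicles are usually stained. Vamp1 and Vamp2 sit in the vesicle membrane and zip together with Snap25 and syntaxin on the plasma membrane, and Syt1 and Syt2 are the calcium sensors that trigger the fusion.

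Positions follow GENCODE M21 on GRCm38. Slc17a7 (ENSMUSG00000070570) lies at chr7:45163949-45176142 and Slc17a6 (ENSMUSG00000030500) at chr7:51622006-51671119, both on the plus strand. Syn1 (ENSMUSG00000037217, chrX:20860511-20921004, minus strand) and Syp (ENSMUSG00000031144, chrX:7638471-7653256, plus strand) are X-linked, and Syn2 (ENSMUSG00000009394) lies at chr6:115134902-115282006 on the plus strand. Syt1 (ENSMUSG00000035864) is at chr10:108497650-109010982 on the minus strand and Syt2 (ENSMUSG00000026452) at chr1:134646677-134762593 on the plus strand. The SNARE genes are all on plus strands, Snap25 (ENSMUSG00000027273) at chr2:136713453-136782428, Vamp1 (ENSMUSG00000030337) at chr6:125215551-125245964 and Vamp2 (ENSMUSG00000020894) at chr11:69088490-69092384.

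The promoters of both glutamate transporters and of both synapsins are shown because the ratio of the transporters and the spread of Syn1 and Syn2 between libraries are followed below. Each is the RefSeq (GRCm38.p6) stretch of 250 bases before RefSeq's start of transcription, cut back to bases outside annotated exons, printed 5′ to 3′ on the gene's strand. Capitals mark matches to 5 motifs searched on both strands: the cyclic AMP response element (TGACGTCA), the GC box (GGGCGG), the left part (TTCAGCACC) and the right part (GGACAG) of the RE1 element bound by the neuronal gene repressor REST, and the TATA box (TATAAA). A match on the other strand appears as the reverse complement.
Slc17a7, chr7:45163671-45163920: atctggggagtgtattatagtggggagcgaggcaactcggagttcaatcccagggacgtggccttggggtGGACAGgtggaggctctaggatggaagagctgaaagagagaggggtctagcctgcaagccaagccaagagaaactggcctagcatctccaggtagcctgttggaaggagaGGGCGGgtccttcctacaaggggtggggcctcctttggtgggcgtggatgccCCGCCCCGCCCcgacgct
Slc17a6, chr7:51621580-51621829: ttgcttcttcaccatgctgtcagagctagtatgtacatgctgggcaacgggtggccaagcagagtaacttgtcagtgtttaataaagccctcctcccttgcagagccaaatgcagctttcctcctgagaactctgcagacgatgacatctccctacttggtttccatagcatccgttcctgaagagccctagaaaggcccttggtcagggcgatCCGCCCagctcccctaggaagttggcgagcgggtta
Syn1, chrX:20921005-20921168: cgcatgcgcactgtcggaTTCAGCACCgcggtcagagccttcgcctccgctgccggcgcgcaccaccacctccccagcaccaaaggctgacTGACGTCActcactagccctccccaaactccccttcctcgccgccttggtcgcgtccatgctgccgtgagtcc
Syn2, chr6:115134652-115134901: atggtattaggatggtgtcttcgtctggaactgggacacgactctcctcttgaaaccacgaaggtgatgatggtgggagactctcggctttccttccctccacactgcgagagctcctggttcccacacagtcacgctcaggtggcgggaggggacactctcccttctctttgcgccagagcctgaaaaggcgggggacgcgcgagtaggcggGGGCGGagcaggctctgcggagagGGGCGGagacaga

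The Syn1 stretch, 164 bases long, held the cyclic AMP response element 159 bases and the left part of RE1 232 bases before RefSeq's start, which lies inside the gene as GENCODE places it, so that the bases nearest to that start are exonic and not printed. These letters occurred in 1.55% and 0.301% of 32851 mouse promoters of 250 bases. The Slc17a7 stretch held 3 GC boxes and 1 right part of RE1, that of Slc17a6 held 1 GC box, and that of Syn2 held 2 GC boxes. GC boxes occurred in 32.7%, the right part of RE1 in 18.7% and the TATA box in 12.4% of all promoters. For 8 of the 10 genes the table held a promoter, and Slc17a6 and Syn2 each had another one, not printed. A match describes the letters of the window and not binding.

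All 10 genes rose in WT CX between E17.5 and P7, with a median log2 change of 2.26 against 0.01 for all genes tested. At an adjusted p below 0.1 in edgeR's quasi-likelihood test, 41.3% of 18620 genes rose over this step and 40.6% fell. In HIP 9 of the 10 rose and none fell over the same step (median 1.72), beside 38.9% and 39.1% of all genes, the exception being Slc17a6. In CB 6 rose and 1, Syt1, fell (median 0.77), beside 35.7% and 35.5%. Fewer cells of a type and less RNA per cell cannot be told apart in bulk tissue.

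Between P7 and adult, Slc17a6 fell in each of the 3 regions, and no other of the 10 genes fell in any. In CX 7 genes rose and 1 fell (median 0.79), beside 33.2% of all genes that rose and 34.5% that fell. In HIP the count was again 7 up and 1 down (median 0.63, all genes 31.3% and 31.5%), and in CB it was 9 up and 1 down (median 1.80, all genes 40.0% and 39.4%). Syn1 and Vamp2 were the 2 not called in CX and in HIP. Both steps of a region use the same P7 libraries.

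**Figure D1:**
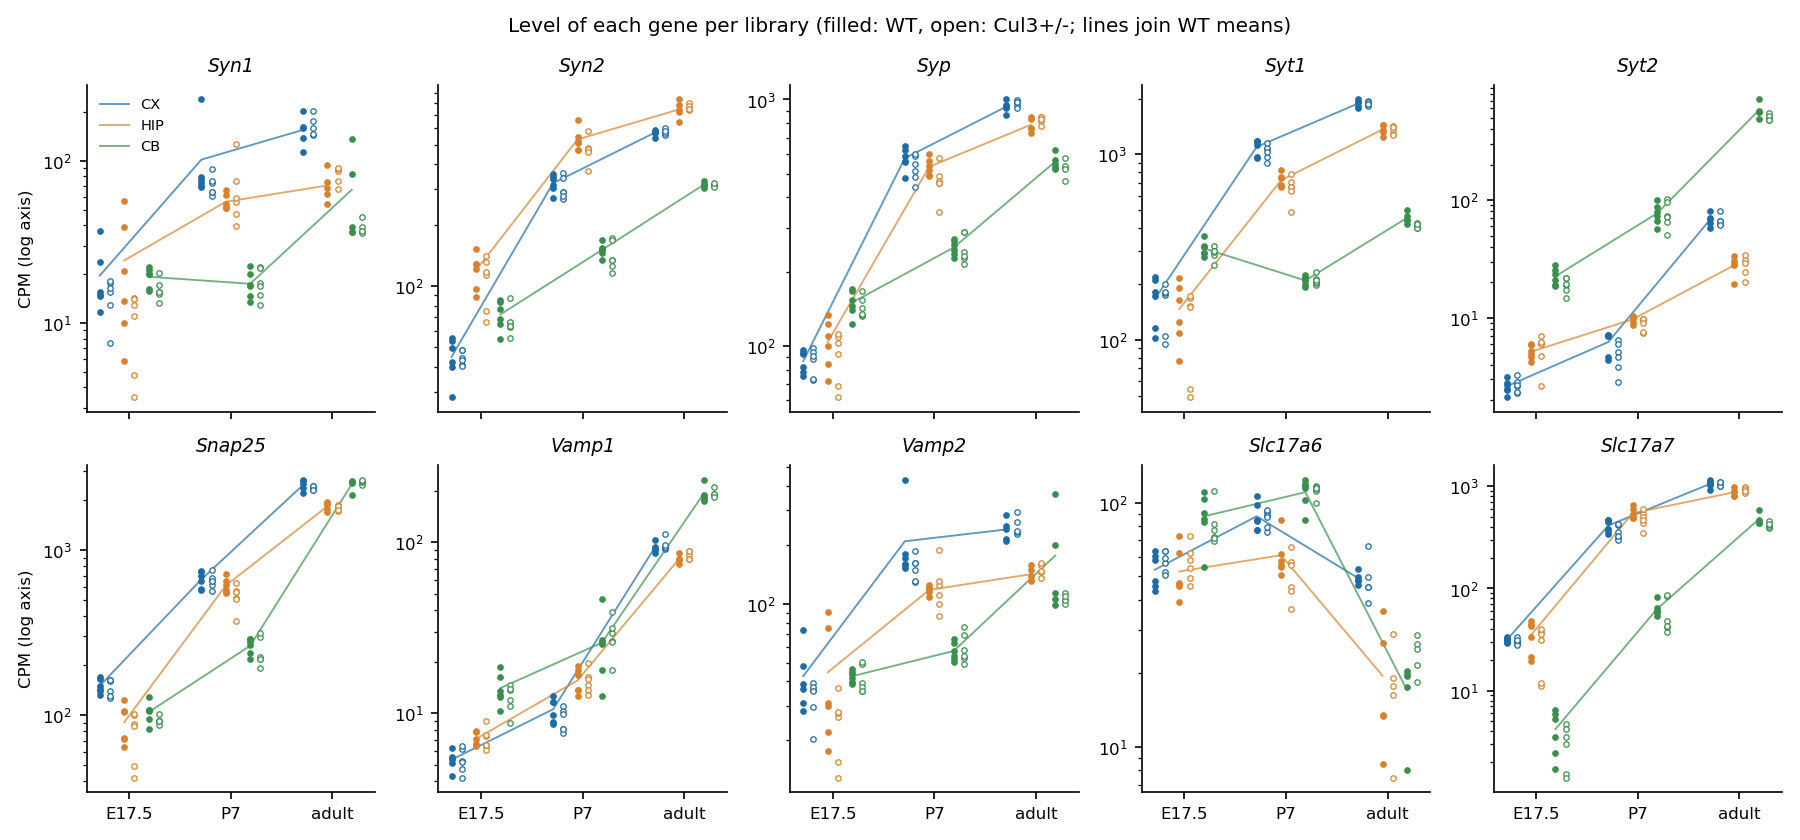
CPM on a log axis for each of the 10 genes at E17.5, P7 and in adults, 1 point per library, filled for WT and open for Cul3+/-, with lines joining the WT means of CX, HIP and CB. Slc17a6 is the gene whose level falls after P7 in each region, from 110 to 17.1 CPM in WT CB, while the filled and open points of a group mostly cover the same range.

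Slc17a7 rose over every step in every region and had the widest range of the 10 genes, 251-fold between WT group means of 4.21 CPM in E17.5 CB and 1056 CPM in adult CX. In CX it ran from 29.4 to 33.4 CPM (median 31.4) at E17.5 and from 345 to 471 CPM (median 414) at P7, and the adult libraries had 920, 1105, 1160, 1040 and 1055 CPM. No 2 periods overlapped. The first step was a log2 change of 3.64 (SE 0.09, adjusted p = 9.50e-15) and the second one of 1.34 (SE 0.08, adjusted p = 1.77e-10).

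In HIP Slc17a7 went from 19.6 to 48.2 CPM (median 38.4) at E17.5 to between 492 and 662 CPM (median 518) at P7, and reached 898, 810, 996, 799 and 878 CPM in adults. CB started much lower, at 1.69 to 6.44 CPM (median 4.40), had 53.2 to 83.1 CPM (median 59.8) at P7, and ended at 467, 439, 586, 451 and 433 CPM. Adult CB thus overlapped the levels of P7 CX (413 CPM on average) and P7 HIP (546 CPM). The E17.5 to P7 changes were alike in size, 3.90 (SE 0.21) in HIP and 3.86 (SE 0.24) in CB on the log2 scale, whereas the P7 to adult changes were 0.69 (SE 0.19) in HIP and 2.94 (SE 0.22) in CB. Over the whole course the rise was 1.89 log2 units larger in CB than in CX (SE 0.24, adjusted p = 2.28e-08). The difference of HIP from CX, −0.34 (SE 0.23), had an adjusted p of 0.245, and of 0.0356 without E17.5 WT replicate 4 (difference −0.51). In Cul3+/- mice the means of CX went from 30.2 to 356 and 1053 CPM and those of CB from 3.06 to 57.0 and 418 CPM.

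The WT means of Slc17a6 were highest at P7 in each region and lowest in adult CB and HIP. The 6 libraries of P7 CB had 84.9 to 124 CPM (median 116), and the adult ones had 17.6, 8.04, 19.9, 19.4 and 20.4 CPM. This fall of 2.67 on the log2 scale (SE 0.21, adjusted p = 1.03e-09) left every adult library below every younger one. In HIP P7 libraries with 50.5 to 84.9 CPM (median 56.7) were followed by adult values of 13.5, 26.5, 8.49, 35.8 and 13.3 CPM, a fall of 1.63 (SE 0.29, adjusted p = 1.03e-04). CX fell by 0.85 (SE 0.11, adjusted p = 1.38e-06), from 77.2 to 106 CPM (median 84.5) to 47.9, 48.2, 46.1, 53.5 and 49.4 CPM.

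The adult CX level of Slc17a6 lay within the E17.5 range of 43.4 to 63.6 CPM, while in HIP and CB adult libraries were below all E17.5 libraries (39.2 to 72.8 CPM and 54.4 to 110 CPM). Before P7 the gene rose in CX by 0.64 (SE 0.10, adjusted p = 1.08e-05), and its changes of 0.17 (SE 0.26) in HIP and 0.28 (SE 0.18) in CB had adjusted p values of 0.563 and 0.177. Without adult WT replicate 2, which shares the fit, the adjusted p in CB was 0.0607. From E17.5 to adult, the change in CB was 2.20 log2 units below that in CX (SE 0.33, adjusted p = 6.64e-07, value −2.20), and that in HIP 1.37 below it (SE 0.33, adjusted p = 0.00121, value −1.37). Cul3+/- means went from 80.6 to 112 and 24.1 CPM in CB.

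Slc17a6 is also a gene of thalamus and hindbrain, so markers of these were read beside it. The sum of 6 thalamus genes in WT HIP was 126 to 193 CPM at E17.5, 96.8 to 133 CPM at P7 and 85.7 to 98.0 CPM in adults, and in adult CB, where Slc17a6 was lowest, it was 98.0 to 129 CPM. The 5 hindbrain genes found of 7 listed summed to 7.72 to 25.4 CPM in E17.5 CB, 8.38 to 22.9 CPM at P7 and 16.1 to 38.5 CPM in adults. Their part in the levels of Slc17a6 was not tested.

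The ratio of the transporters within a library, which needs no scaling between libraries, turned over, in its mean, from Slc17a6 to Slc17a7 in all 3 regions. The mean log2 ratio of Slc17a7 to Slc17a6 counts (0.5 added) in WT CX was −0.75 ± 0.26 at E17.5, 2.23 ± 0.30 at P7 and 4.43 ± 0.17 in adults (SD, n = 6, 6 and 5). HIP went from −0.63 ± 0.81 to 3.18 ± 0.39 and 5.68 ± 0.96. CB went from −4.50 ± 0.59 to −0.81 ± 0.21 and 4.86 ± 0.54, so that at P7 the 6 CB libraries, at −1.02 to −0.47, still held more Slc17a6 than Slc17a7, as none in CX or HIP did. Each of the 6 steps had p = 0.00216, the smallest that 6 against 6 or 6 against 5 mice allow in an exact 2-sided permutation test, or 0.003 after adjustment over the 18 ratio comparisons between periods.

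**Figure D2:**
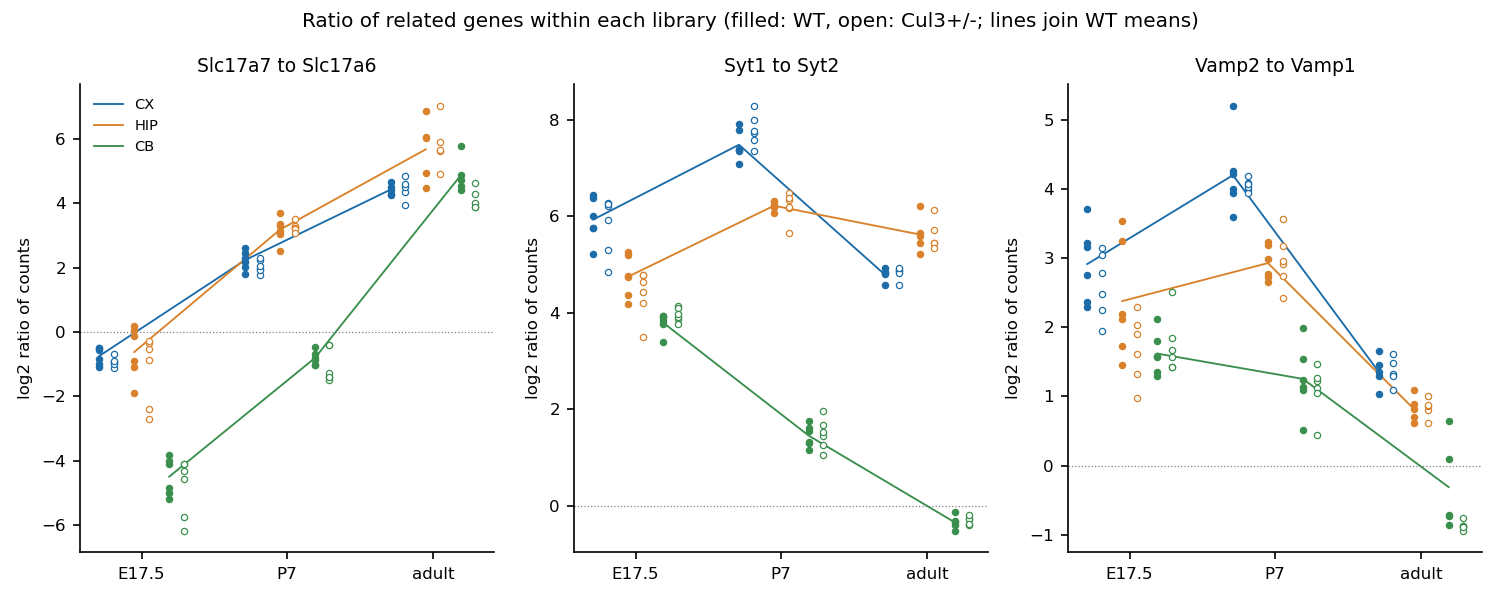
Log2 ratio of the counts of Slc17a7 to Slc17a6, Syt1 to Syt2 and Vamp2 to Vamp1 in each library, filled for WT and open for Cul3+/-, by period, with lines joining the WT means of each region; the dotted line at 0 marks equal counts. In CB the first ratio climbs from −4.50 to 4.86 and the second falls from 3.80 to −0.34.

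Of the calcium sensors, Syt1 was highest in CB at E17.5 and in CX at P7 and in adults. In CX the WT libraries had at most 217 CPM (median 177) at E17.5, 955 to 1188 CPM (median 1148) at P7, and 1909, 1981, 1829, 1917 and 1782 CPM in adults. Its rises there were 2.64 (SE 0.16, adjusted p = 5.01e-11) and 0.77 (SE 0.16, adjusted p = 3.19e-04) on the log2 scale, and in HIP they were 2.25 (SE 0.19) and 0.92 (SE 0.19). In CB Syt1 instead fell between E17.5, with 281 to 362 CPM (median 305), and P7, with 193 to 224 CPM (median 210), by 0.62 (SE 0.06, adjusted p = 1.37e-07), and the ranges did not overlap. It then rose by 1.15 (SE 0.07) to 423, 441, 500, 464 and 445 CPM.

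Over the same step in CB the sum of 4 genes of dividing progenitors went from 538 to 714 CPM at E17.5 to 813 to 1048 CPM at P7, and that of 6 general neuron genes from 3248 to 3836 CPM to 1834 to 2077 CPM. Their part in the fall of Syt1 was not tested. From E17.5 to adult the change of Syt1 differed by −2.95 between CB and CX (SE 0.15, adjusted p = 5.39e-18), the widest difference of the 10 genes.

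Syt2, the fast calcium sensor known from hindbrain synapses and inhibitory interneurons, was led by CB at every period. In CB it went from 18.8 to 27.9 CPM (median 22.1) to 56.9 to 99.6 CPM (median 76.3) and to 559, 555, 716, 571 and 488 CPM. CX had 2.12 to 3.17 CPM at E17.5, 4.39 to 7.16 CPM at P7 and 58.0 to 80.5 CPM in adults, and HIP 4.21 to 5.98, 8.68 to 10.3 and 19.3 to 33.7 CPM. The 3 regions did not overlap at any period, and HIP passed from the middle place at E17.5 and P7 to the lowest in adults. The change from P7 to adult was 3.44 (SE 0.14) in CX, 1.54 (SE 0.12) in HIP and 2.93 (SE 0.14) in CB, and the whole course was 2.24 log2 units smaller in HIP than in CX (value −2.24, SE 0.19, adjusted p = 1.49e-11). That of CB differed from CX by 0.07 (SE 0.18, adjusted p = 0.767).

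The log2 ratio of Syt1 to Syt2 in WT CB fell from 3.80 ± 0.21 at E17.5 to 1.46 ± 0.23 at P7 and −0.34 ± 0.14 in adults (SD, n = 6, 6 and 5; p = 0.00216 for each step, exact 2-sided permutation test). The 5 adult WT CB libraries, at −0.52 to −0.13, were the WT libraries with more Syt2 than Syt1 counts. CX rose from 5.94 ± 0.46 to 7.48 ± 0.31 and then fell to 4.80 ± 0.14, and HIP went from 4.75 ± 0.43 to 6.22 ± 0.09 and 5.63 ± 0.37. Among these steps the last one in HIP had the smallest change, −0.59, with p = 0.00866 in the exact permutation test (adjusted 0.00974), and it was the one whose ranges overlapped.

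Snap25, the plasma membrane SNARE, rose over both steps everywhere. In CB its libraries had 82.1 to 128 CPM (median 106) at E17.5 and 220 to 288 CPM (median 272) at P7, and then 2566, 2603, 2168, 2608 and 2594 CPM in adults. The late step, 3.28 log2 units (SE 0.10, adjusted p = 2.08e-15), was larger than the early one of 1.29 (SE 0.10), while in HIP the early step was 2.70 (SE 0.15) and the late one 1.61 (SE 0.15). CX had 2.06 (SE 0.09) and 1.89 (SE 0.09). From E17.5 to adult Snap25 rose by 0.63 log2 units more in CB than in CX (SE 0.11, adjusted p = 1.72e-05) and by 0.35 more in HIP (SE 0.11, adjusted p = 0.0146).

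Vamp1, the vesicle SNARE that is plentiful in spinal cord and brainstem, was a late gene in each region. In CX it had 4.31 to 6.28 CPM (median 5.40) at E17.5, 8.61 to 12.6 CPM (median 10.7) at P7, and 87.1, 94.0, 90.3, 103 and 91.3 CPM in adults. The steps were 0.89 (SE 0.10) and 3.13 (SE 0.11) in CX, 1.09 (SE 0.10) and 2.37 (SE 0.11) in HIP, and 0.84 (SE 0.23) and 2.91 (SE 0.24) in CB. Adult CB had the highest values, 180, 174, 232, 186 and 188 CPM, above all 10 WT libraries of adult CX and HIP.

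Vamp2, the main vesicle SNARE of the forebrain, rose early in CX (2.21, SE 0.27, adjusted p = 6.34e-07) and HIP (1.34, SE 0.31, adjusted p = 9.20e-04). In CB it rose late, by 1.65 (SE 0.26, adjusted p = 1.05e-05), after a change of 0.38 (SE 0.24) with an adjusted p of 0.176, or 0.0195 without adult WT replicate 3. The adult WT CB libraries were uneven, with 98.9, 106, 364, 200 and 113 CPM (median 113), after a P7 median of 56.0 CPM. Group means rose 3.08-fold over this late step in WT and 1.77-fold in Cul3+/- mice. The P7 CX libraries had 160, 153, 157, 431, 172 and 180 CPM, and the adult ones 214, 241, 285, 210 and 250 CPM. Replicate 4 at P7 stood above every adult library, and without it the P7 to adult change of Vamp2 went from 0.19 (SE 0.27, adjusted p = 0.570) to 0.54 (SE 0.19, adjusted p = 0.0208).

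The ratio of Vamp2 to Vamp1 fell between P7 and adult in each region, from 4.21 ± 0.55 to 1.36 ± 0.23 in CX and from 2.93 ± 0.25 to 0.82 ± 0.18 in HIP (SD, n = 6 and 5; p = 0.00216 for each, exact 2-sided permutation test). CB went from 1.26 ± 0.49 to −0.31 ± 0.66 (p = 0.00649 in the same exact test, adjusted 0.00779), with 3 of the 5 adult libraries below 0. Before P7 the ratio rose in CX by 1.28 (p = 0.00433, exact permutation test). In HIP (0.55) and CB (−0.37) the adjusted p was 0.154, and these were the 2 of 18 ratio comparisons between periods that were not called.

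Across the 9 WT group means the synapsins had r = 0.85 with each other. Syn2 rose in every step, in CX by 2.76 (SE 0.13, adjusted p = 2.12e-12) and 0.82 (SE 0.12), in HIP by 2.09 (SE 0.12) and 0.50 (SE 0.12, adjusted p = 0.00200), and in CB by 1.01 (SE 0.09) and 1.09 (SE 0.09). Its CX libraries had 28.3 to 55.3 CPM (median 45.7) at E17.5, 271 to 358 CPM (median 327) at P7 and 538 to 591 CPM in adults, and no periods overlapped. HIP held more Syn2 than CX at each period, with ranges of 88.5 to 153, 472 to 657 and 649 to 835 CPM.

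Syn1 was spread far more within groups. In CX its WT libraries had 14.7, 15.5, 37.1, 11.6, 23.7 and 14.8 CPM at E17.5, then 70.6, 74.4, 69.0, 239, 76.8 and 79.8 CPM at P7, and 113, 159, 203, 138 and 162 CPM in adults. The rise to P7 was 2.30 (SE 0.34, adjusted p = 6.30e-06). The P7 to adult change of 0.59 (SE 0.34, adjusted p = 0.134) became 1.06 (SE 0.24, adjusted p = 9.78e-04) without P7 WT replicate 4, and its adjusted p was 0.0907 without E17.5 WT replicate 3. In HIP the mean of Syn1 rose from 24.3 to 55.8 CPM by P7 (adjusted p = 0.0134), and its change to adult was 0.34 (SE 0.39, adjusted p = 0.479). In CB the change to P7 was −0.19 (SE 0.28, adjusted p = 0.563), followed by a rise of 1.95 (SE 0.29, adjusted p = 6.58e-06) from 13.5–22.4 CPM to 36.6, 36.2, 136, 83.2 and 39.0 CPM.

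Syp rose in every step with little spread. WT means were 86.5, 578 and 936 CPM in CX, 103, 533 and 790 CPM in HIP, and 150, 250 and 559 CPM in CB (SD 8.85 to 58.0 CPM). The early steps were 2.66 (SE 0.08) in CX, 2.31 (SE 0.12) in HIP and 0.69 (SE 0.07) in CB, and the late ones 0.69 (SE 0.08), 0.58 (SE 0.12) and 1.19 (SE 0.08). From E17.5 to adult Syp rose less in CB than in CX (difference −1.47, SE 0.09, adjusted p = 3.95e-16) and less in HIP than in CX (difference −0.47, SE 0.09, adjusted p = 3.94e-05).

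In that test of the whole course against CX, with mouse as a block, CB had a larger rise for 2 genes, Slc17a7 and Snap25, and a smaller or more negative change for 5, Syn1, Syn2, Syp, Syt1 and Slc17a6. Of all 20298 genes tested, 32.7% were higher and 33.9% lower in this test. HIP was higher for 1 gene, Snap25, and lower for 6, Syn1, Syn2, Syp, Syt2, Vamp1 and Slc17a6, beside 21.9% and 22.4% of all genes. The difference of Syn1 between HIP and CX (−1.24, SE 0.47, adjusted p = 0.0367) rested on 2 libraries, since its adjusted p was 0.133 without E17.5 WT replicate 1 (−0.93) and 0.164 without replicate 6 (−0.78). Vamp2 was not called against CX in CB (−0.55, adjusted p = 0.248) or HIP (−0.67, adjusted p = 0.212). Without E17.5 WT replicate 3 these were −0.77 (adjusted p = 0.0981) and −0.95 (adjusted p = 0.0640), and without adult WT replicate 3 the value in CB was −0.86 (adjusted p = 0.0761). Syt1 in HIP (−0.26, adjusted p = 0.161) had −0.28 with an adjusted p of 0.0761 without E17.5 WT replicate 4.

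Regions were compared within the same mice. A library number left out of these fits, or of the test against CX above, stands for the mouse with that number in CX, and all its libraries were left out; some mice carry another number in HIP or CB. At E17.5 CB led CX in 6 genes (Syn2, Syp, Syt1, Syt2, Vamp1, Slc17a6) and was lower in 2 (Snap25, Slc17a7), with a median of 0.71, beside 31.3% and 30.3% of all genes. At P7 CB was lower than CX in 7 genes and higher only in Syt2, Vamp1 and Slc17a6, with a median of −1.26, beside 38.8% lower and 44.1% higher of all genes. In adults CB was lower than CX in 7 and higher in Syt2 (3.11, SE 0.14) and Vamp1 (1.06, SE 0.08), with a median of −0.79, beside 36.5% lower and 38.9% higher, and Snap25 differed by 0.03 (SE 0.06, adjusted p = 0.673). The calls of Slc17a6 and Vamp2 rested on single libraries. Slc17a6 at P7 (0.34, adjusted p = 0.0175) had an adjusted p of 0.146 without P7 WT replicate 4, and Vamp2 in adults (−0.57, adjusted p = 0.0454) had 0.152, 0.184 and 0.174 without adult WT replicates 1, 2 and 6 and −0.85 (adjusted p = 9.00e-04) without replicate 3.

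HIP was compared with CX in the same way. At E17.5 it was higher in 4 genes (Syn2, Syp, Syt2, Vamp1) and lower in Snap25 (−0.74, SE 0.11), beside 24.2% and 22.3% of all genes. At P7 it was higher in 4 (Syn2, Syt2, Vamp1, Slc17a7) and lower in 6, beside 27.8% and 29.2%. Syn1 and Vamp2 were among these 6 with −0.75 and −0.76, and with −0.45 and −0.49 without P7 WT replicate 4, while Vamp1 (0.53) had an adjusted p of 0.107 without replicate 3. Adult HIP was lower in 9 of the 10 genes and higher in Syn2 (0.39, SE 0.05, adjusted p = 8.30e-05), beside 25.9% lower and 25.5% higher, and Vamp1 (−0.21, adjusted p = 0.0490) had adjusted p values of 0.107, 0.112 and 0.117 without adult WT replicates 2, 4 and 6.

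CB against HIP was higher in 5 genes and lower in 2 (Syn2, Slc17a7) at E17.5, beside 25.0% and 24.5% of all genes. P7 CB was higher in Syt2, Vamp1 and Slc17a6 and lower in the other 7, beside 42.3% and 36.0%. In adults CB was higher in Syt2 (4.38, SE 0.15), Snap25 (0.45, SE 0.06) and Vamp1 (1.27, SE 0.08) and lower in Syn2, Syp, Syt1 and Slc17a7, beside 38.3% and 36.8%. Slc17a6 did not differ beyond the spread there (−0.11, SE 0.33, adjusted p = 0.775), nor did Vamp2 (0.18, SE 0.23). Syn1 (−0.23, adjusted p = 0.400) had −0.48 with an adjusted p of 0.0796 without adult WT replicate 3.

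Divided by exon length, which allows genes to be compared with one another, Snap25 had the highest adult WT level of the 10 genes in each region, at 365 CPM per kb in CX, 272 in HIP and 369 in CB. Syt1 followed in CX with 226 CPM per kb, and Slc17a7 and Syt1 both had 163 CPM per kb in HIP. In adult CB Syt2, at 75.6 CPM per kb, stood above Syt1 at 54.5, and Slc17a7, at 88.1, above Slc17a6 at 3.16. At E17.5 this last order was the opposite, with Slc17a6 at 16.2 and Slc17a7 at 0.780 CPM per kb in CB. Vamp1 stayed below Vamp2 per kb in each WT group mean, adult CB included (18.9 against 46.3). Exon lengths are those of all annotated exons of a gene joined, from 3.30 kb for Syn1 to 10.2 kb for Vamp1, so a gene whose long ends are little used is understated.

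**Figure D3:**
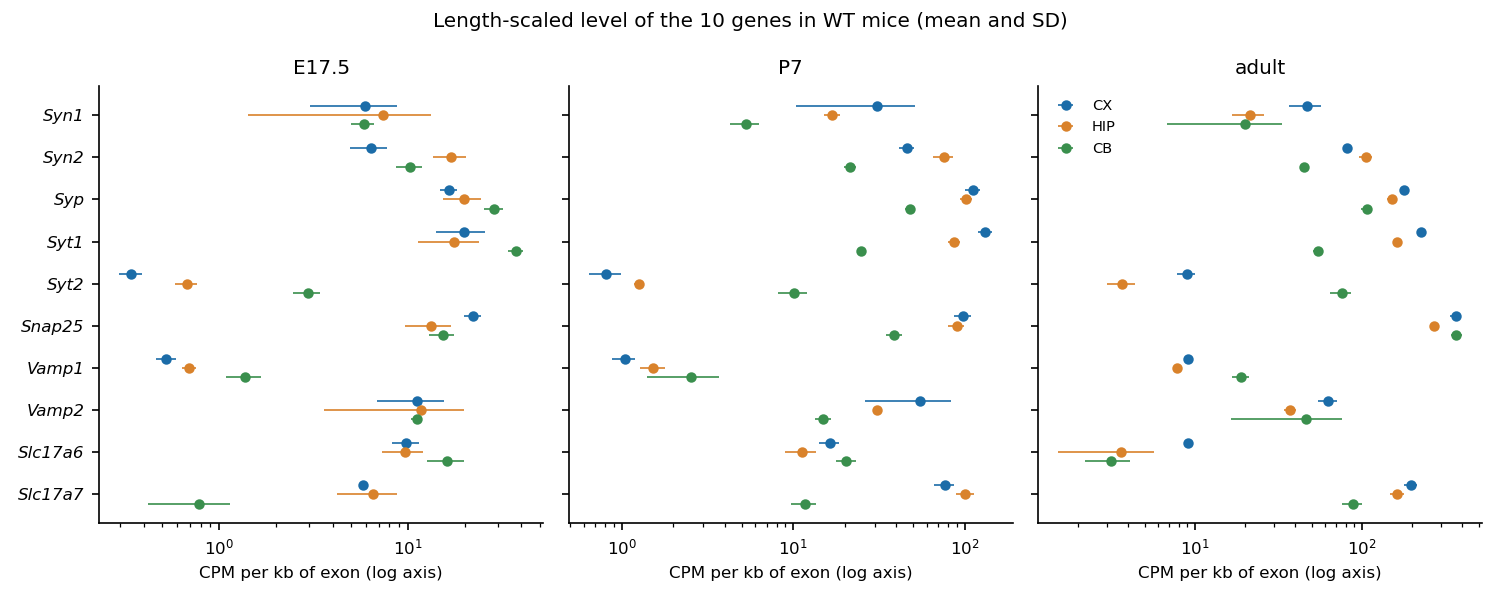
CPM per kb of exon on log axes in WT mice, as means with SD bars, for the 10 genes in CX, HIP and CB at each period. In adults Snap25 is at 272 to 369 CPM per kb, and Syt2 and Slc17a6 trade places in CB between E17.5 (2.95 and 16.2) and adults (75.6 and 3.16).

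The order of the 9 WT group means often held steps that the spread between libraries covered. For Syn1 each of the 8 neighbouring pairs overlapped, from 155 CPM in adult CX to 17.4 CPM in P7 CB. For Slc17a6 7 of 8 neighbours overlapped, the exception being adult CX (49.0 CPM) against adult HIP (19.5 CPM). Syt1 was the most distinctly ordered, with overlaps only among its 3 lowest means, P7 CB (209 CPM), E17.5 CX (166 CPM) and E17.5 HIP (147 CPM). From highest to lowest WT group mean the genes spanned 251-fold for Slc17a7, 220-fold for Syt2, 35.9-fold for Vamp1, 27.7-fold for Snap25, 16.6-fold for Syn2, 12.8-fold for Syt1, 10.8-fold for Syp, 8.88-fold for Syn1, 6.46-fold for Slc17a6 and 5.64-fold for Vamp2.

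Across these 9 WT means of log2 CPM, which share libraries and depth, Slc17a6 was negatively correlated with each of the other 9 members (Pearson r from −0.68 with Vamp1 to −0.29 with Syt1). Syt2 and Vamp1, both led by CB, had r = 0.89. Among 11736 genes, those most like Slc17a7 were Miga1 (0.979), Tnr (0.978) and Eva1a (0.969), and those most like Slc17a6 were Lrrc59 (0.987), Rnf4 (0.954) and Lama4 (0.952). Syp was nearest to Atp6ap2 (0.997), Grin1 (0.995) and St6galnac6 (0.994), Syt1 to Adcy2 (0.992), Zfr (0.990) and Akap6 (0.987), and Syt2 to Ckb (0.984), Mreg (0.982) and P2rx4 (0.981). Snap25 had Mypop (0.990), Pfkm (0.989) and Sptbn4 (0.989), Vamp1 had Ankrd40 (0.990), Hdhd2 (0.989) and Rida (0.989), and Vamp2 had Tpd52 (0.992), Cry2 (0.991) and Atg9a (0.990). For the synapsins they were Ndel1 (0.990), Cep170b (0.989) and 1500011B03Rik (0.984) with Syn1, and Slc30a1 (0.986), Nrip3 (0.982) and Slc9a9 (0.981) with Syn2.

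Other genes of the vesicle and the release site, with the repressor gene Rest counted among them, gave a setting for the 10. The list held 71 names, of which 69 were in the table. In CX 61 of 69 rose from E17.5 to P7 and 3 fell (88.4% and 4.35%, beside 41.3% and 40.6% of all genes; median 1.55), led by the vesicular zinc transporter Slc30a3 (6.52, SE 0.24, adjusted p = 1.88e-13), while Rest, the repressor of neuronal genes, fell by 1.22 (SE 0.11). In HIP it was 58 up and 6 down of 68 (85.3% and 8.82%, beside 38.9% and 39.1%), with Slc30a3 (6.06) and the vesicle protein Sv2b (3.56) up and Rest (−1.18) down. In CB 24 rose and 28 fell of 68 (35.3% and 41.2%, near the 35.7% and 35.5% of all genes; median −0.06), among them Syt9 up (1.46) and Syt5 and Unc13b down (−1.55 and −1.31).

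From P7 to adult 38 of 69 rose and 15 fell in CX (55.1% and 21.7%, beside 33.2% and 34.5% of all genes). In HIP 36 of 68 rose and 12 fell (52.9% and 17.6%, beside 31.3% and 31.5%), and in CB 53 of 68 rose and 15 fell (77.9% and 22.1%, beside 40.0% and 39.4%). In CB the active zone genes Rims1 (2.71, SE 0.07) and Rims2 (2.64, SE 0.06) rose, and the syntaxin Stx1a, partner of Snap25, fell by 3.60 (SE 0.08, adjusted p = 1.69e-17). Slc17a8, the third vesicular glutamate transporter, fell in CX by 2.21 (SE 0.21). Between regions, adult CB differed from CX by −6.89 in Stx1a (SE 0.06) and −5.00 in Syt5 (SE 0.09), and by 3.34 in Syt9 (SE 0.08) and 2.97 in the priming gene Unc13c (SE 0.10), with 15 of 68 higher and 41 lower (22.1% and 60.3%, beside 38.9% and 36.5% of all genes). The whole course from E17.5 to adult was smaller in CB than in CX for 45 of 69 and larger for 7 (65.2% and 10.1%, beside 33.9% and 32.7% of all genes), with Slc30a3 at −10.03 (SE 0.28). In HIP it was smaller for 19 and larger for 11 (27.5% and 15.9%, near the 22.4% and 21.9% of all genes).

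None of the 10 genes was called between Cul3+/- and WT mice in any of the 9 datasets, while Cul3 itself was, as the 1 gene in each. That is 0.00603%, 0.00586% and 0.00568% of the genes tested in CX, HIP and CB at E17.5, 0.00566%, 0.00563% and 0.00570% at P7, and 0.00569%, 0.00584% and 0.00584% in adults. Of the 90 comparisons edgeR gave an unadjusted p under 0.05 in 6, 1 higher and 5 lower in mutant mice, and DESeq2 called 0 with 7 under 0.05. The lowest adjusted p was 0.335 in edgeR and 0.216 in DESeq2. Log2 fold changes ran from −1.29 to 0.49, and the median of the 10 genes in a dataset from −0.21 in E17.5 HIP to 0.05 in adult HIP. Of the other vesicle genes none was called either, with 0 to 11 of 65 to 69 under an unadjusted p of 0.05 in edgeR, the 11 being in adult CB. The share of all genes under 0.05 is not given beside these counts, so they are not read as a trait of the listed genes. Within the spread of these libraries a difference was not detectable, which does not show that there was none. The study itself fitted sex and factors of unwanted variation (RUVs) and reported many genes besides Cul3 at the same threshold of 0.1. The fits reported here had neither.

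**Figure D4:**
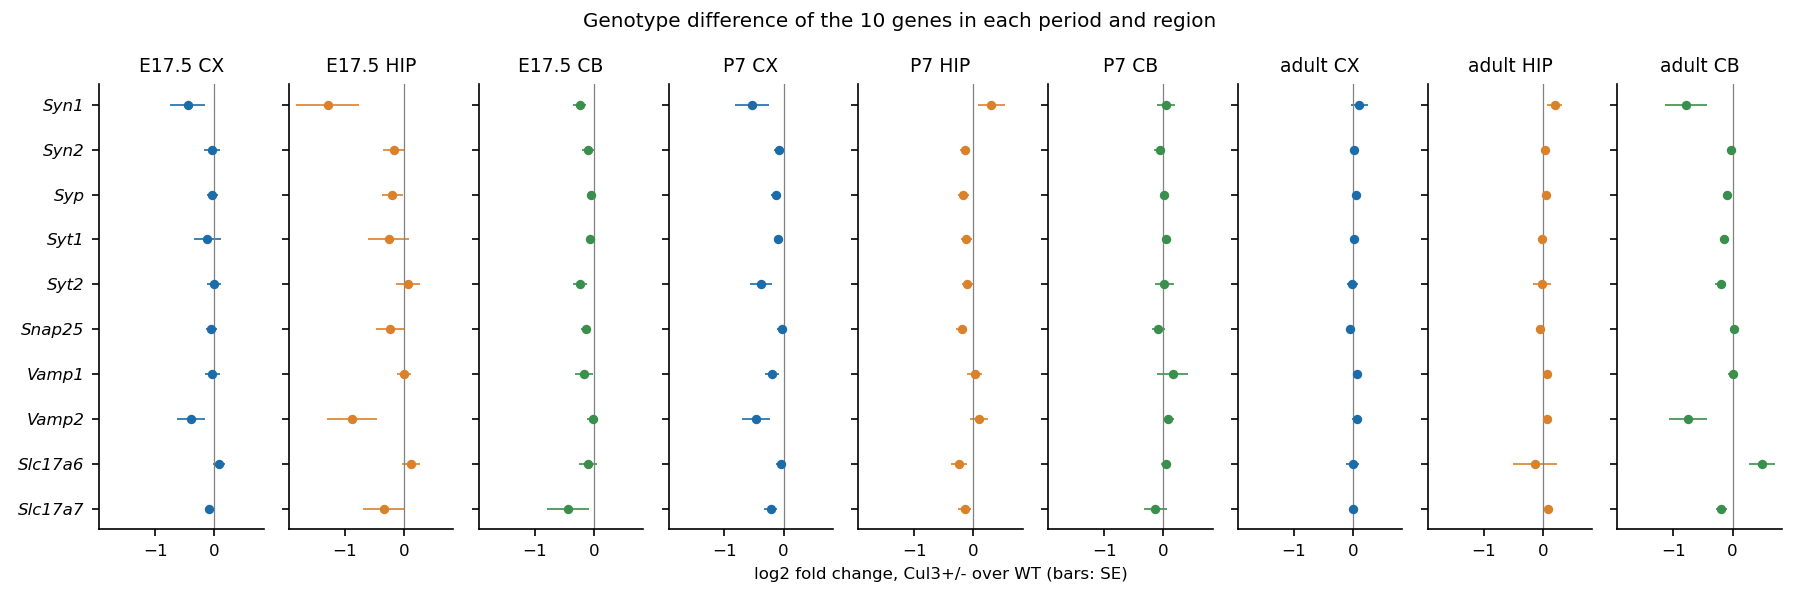
Log2 fold change of Cul3+/- over WT with its SE for the 10 genes in each of the 9 datasets, by edgeR. The points farthest from 0 are Syn1 (−1.29) and Vamp2 (−0.88) in E17.5 HIP, and their bars are among the longest.

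The largest difference was that of Syn1 in E17.5 HIP. WT libraries had 38.9, 5.82, 20.8, 9.99, 13.7 and 56.4 CPM and Cul3+/- libraries 3.48 to 14.3 CPM (median 11.9). WT replicates 1, 3 and 6 were above all mutant libraries, the first and the last of them by the most, and the other 3 lay within the mutant range. The log2 fold change was −1.29 (SE 0.53, adjusted p = 0.941 in edgeR), and −0.83 without WT replicate 6. Vamp2 was highest in WT replicates 1 and 6, with 75.4 and 91.1 CPM against 12.9 to 37.0 CPM in mutant libraries (−0.88, −0.54 without replicate 6). In these 2 libraries the hippocampal granule and CA cell list summed to 1744 and 1652 CPM, against 772 to 985 CPM in the other WT libraries and 515 to 1378 CPM in mutant ones. WT replicate 2, the lowest of WT in Syn1 and Vamp2 (5.82 and 17.7 CPM), had 4562 CPM of 4 choroid plexus genes. The other WT libraries had 6.38 to 120 CPM of these, and mutant ones 22.2 to 322 CPM. In adult HIP the WT library with most of this list, 2192 CPM, was instead the highest of WT in Syn1 (93.9 CPM). WT replicate 1 of E17.5 HIP also had the lowest library total, 15126114 counts. The part of these lists, or of this depth, in the difference was not tested.

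Syt1 and several other members moved with another marker list there. Replicates 3 and 4 of both genotypes had the most progenitor RNA, 742 and 702 CPM in WT and 912 and 851 CPM in mutant mice against 419 to 610 CPM in the rest. Their Syt1 levels were the lowest of their groups, 109 and 77.1 CPM in WT and 54.0 and 49.0 CPM in mutant mice, where the others had 124 to 216 and 150 to 172 CPM. The mice of these libraries share a prefix in their names that no other E17.5 mouse has. In E17.5 CX they also had the most progenitor RNA, 633, 680, 710 and 736 CPM against 272 to 422 CPM, and the lowest Syt1 of their groups. In E17.5 CB they had the least, 578, 538, 552 and 480 CPM against 615 to 725 CPM. The part of the progenitors, or of what the prefix stands for, in these levels was not tested.

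In adult CB 4 of the 10 genes had an unadjusted p under 0.05 in edgeR. Low p values were common among all 17110 genes tested there, since the p of 0.0480 of Slc17a6 had an adjusted p of 0.345. The count is therefore not read as a trait of the 10 genes. Syt1 had 423, 441, 500, 464 and 445 CPM in WT and 399, 416, 424, 399 and 423 CPM in mutant mice, and the groups met only at 423 to 424 CPM. Its log2 fold change was −0.15 (SE 0.06) with an adjusted p = 0.335 in edgeR. Slc17a6 had 17.6, 8.04, 19.9, 19.4 and 20.4 CPM in WT and 26.4, 18.4, 25.2, 28.8 and 21.7 CPM in mutant mice, with WT replicate 2 far below the rest. Its change of 0.49 (adjusted p = 0.345 in edgeR) was 0.31 without that library. Syn1 (−0.79) and Vamp2 (−0.75), both with an adjusted p = 0.344 in edgeR, rested on WT replicate 3, which had 136 CPM of Syn1 and 364 CPM of Vamp2 where the other WT libraries had 36.2 to 83.2 and 98.9 to 200 CPM. Without that library the edgeR fold changes were −0.34 and −0.30. The cerebellar granule cell list summed to 4004 to 4905 CPM in WT and 3861 to 4002 CPM in mutant libraries, with the highest value in WT replicate 3. The hippocampal granule and CA cell list was 382 CPM in that library and 288 CPM in WT replicate 5, the one with 83.2 CPM of Syn1, and 147 to 178 CPM in the other 8. The hindbrain list was also highest in WT replicates 3 and 5, at 38.5 and 28.5 CPM, against 16.1 to 21.2 CPM in the other 8. WT replicate 2, lowest in Slc17a6, had 1930 CPM of 4 oligodendrocyte genes where the other libraries of adult CB had 3462 to 4530 CPM. The part of these lists in the differences was not tested.

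P7 CX repeated the picture with WT replicate 4, at 239 CPM of Syn1 and 431 CPM of Vamp2. The fold changes of −0.53 and −0.47 became −0.06 and −0.11 without it. The hippocampal list was 218 CPM in this library and 124 to 149 CPM in the other WT ones, and its part was not tested. In P7 HIP it was a mutant library, replicate 3, that stood apart, with 126 CPM of Syn1 where the others had 39.6 to 75.3 CPM and WT had 50.8 to 65.8 CPM. The change of Syn1 there went from 0.30 to −0.00 without it. Mutant replicate 1, the lowest there in Syn1 (39.6 CPM), had 4039 CPM of the choroid plexus list against 7.82 to 37.3 CPM in the other mutant libraries. The part of this list was not tested. In E17.5 CB Syn1 had 15.8 to 22.2 CPM (median 20.1) in WT and 13.2 to 20.2 CPM (median 15.5) in mutant mice (−0.24, SE 0.11, adjusted p = 0.988 in edgeR), and it was −0.18 to −0.31 with single libraries left out.

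The ratios of related genes were not called between genotypes in any of 27 comparisons, 3 ratios in 9 datasets. The lowest p values of the exact 2-sided permutation test were in adult CB, 0.0159 for Vamp2 to Vamp1 (difference −0.55) and 0.0238 for Slc17a7 to Slc17a6 (difference −0.73, WT 4.86 ± 0.54 and mutant 4.13 ± 0.33, SD, n = 5 each), both 0.321 after adjustment. The smallest p possible there was 0.00794. The ratio of Vamp2 to Vamp1 was 0.65 and 0.10 in WT replicates 3 and 5, −0.86 to −0.72 in the other WT and −0.95 to −0.76 in mutant libraries. That of Slc17a7 to Slc17a6 was 5.77 in WT replicate 2, 4.41 to 4.88 in the other WT and 3.87 to 4.64 in mutant libraries.

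The spread within groups was itself shared between members. As deviations of log2 CPM from the group mean, Syn1 and Vamp2 had Pearson r = 0.95 and Spearman rho = 0.90 over all libraries used (p = 1.0e-05 in 100000 permutations within groups, the smallest they can give, adjusted 3.9e-05 and 3.3e-05 over 85 relations). Without the 2 libraries farthest from the median r was 0.94, and over the means of 34 mice, whose 3 libraries are not independent, it was 0.97. The permutations moved each library singly, although libraries of a mouse can deviate together, so permutation p values here and below can be too small. Between Syn1 and Syn2 r was 0.24 (p = 0.0888, adjusted 0.109) and rho 0.30 (adjusted p = 0.0123). Syp, Syt1 and Snap25 had r of 0.84 (Syp and Syt1), 0.86 (Syp and Snap25) and 0.82 (Syt1 and Snap25), all with permutation p = 1.0e-05 and 0.80, 0.84 and 0.75 without the 2 farthest libraries.

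**Figure D5:**
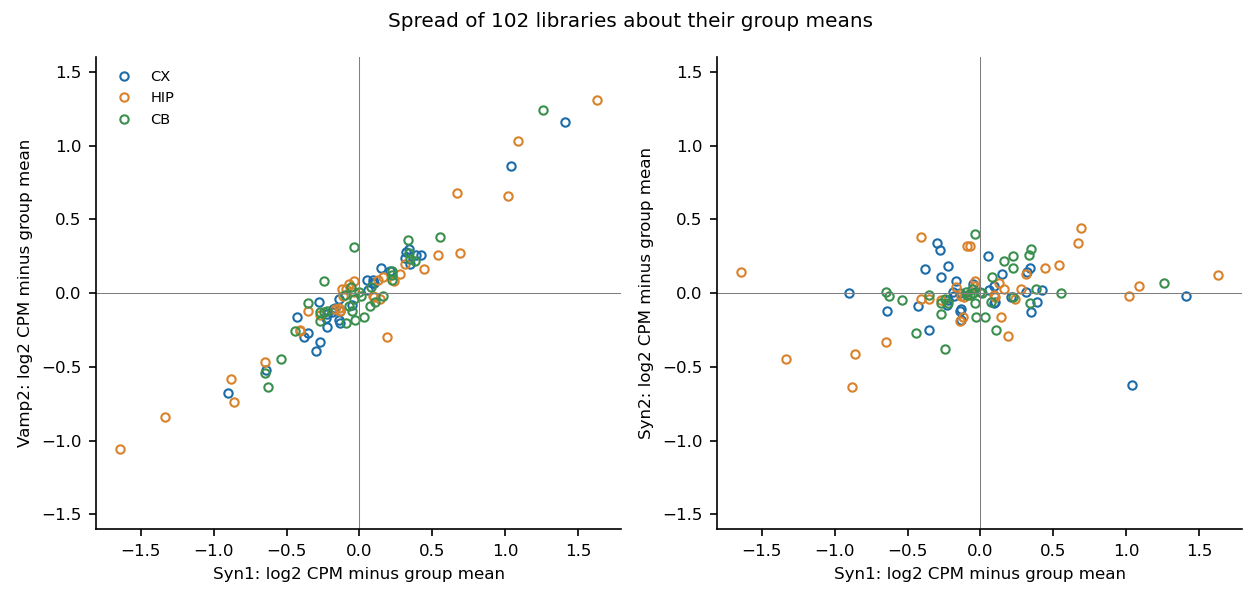
Deviation of log2 CPM from the group mean in each library used, Vamp2 against Syn1 on the left and Syn2 against Syn1 on the right, coloured by region. The left points lie along a line (r = 0.95), the right ones do not (r = 0.24).

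Other measures moved with the members in the same libraries. The mean deviation of 76 ribosomal protein genes from their group means ran against Syn1 (r = −0.72, rho = −0.65) and Vamp2 (r = −0.73, rho = −0.67), both with permutation p = 1.0e-05 and −0.71 and −0.68 without the 2 farthest libraries. Genes rich in GC, 1067 of them, had r = 0.37 with Syn1 and 0.29 with Vamp2, which have 57.9% and 53.2% GC in their longest transcripts. Dividing progenitor genes ran most strongly against Syt1 (r = −0.77, rho = −0.60, permutation p = 1.0e-05, −0.77 without the 2 farthest libraries) and less against Syn1 (r = −0.34). Over mouse means these r values were −0.88 and −0.46. Slc17a6 had r between −0.25 (Syt1) and 0.24 (Syt2) to the other members. Among libraries named above for high Syn1, the ribosomal mean was −0.43 in P7 CX WT replicate 4 and −0.35 in adult CB WT replicate 3. In E17.5 HIP it was −0.42, −0.21 and 0.21 in WT replicates 6, 1 and 3, and in adult CB WT replicate 5 it was 0.06. The part of ribosomal genes, GC content or cell types in this spread was not tested.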

How the data were processed

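Bulk RNA-seq was deposited as 1 table of estimated counts, 53465 genes by 108 libraries, which the authors made with cutadapt 1.14, STAR 2.5.3a and RSEM 1.3 on GRCm38.p5, per the labels and methods. The deposited expected counts (5.76% not whole) were rounded. Members were matched by Ensembl identifier, and 53274 identifiers had a symbol. Members and lists were chosen with earlier results of these data known.

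Libraries were grouped by period, region and genotype. Genes were kept by edgeR's filterByExpr (minimum count 10, minimum total 15) and scaled by TMM, and edgeR's quasi-likelihood test was fitted over all genes in R 4.3.3 with edgeR 4.0.16 and Benjamini-Hochberg adjustment (adjusted p below 0.1 called). Genotype was fitted within each of 9 datasets, period within region in WT, and region and its difference with age in WT with mouse as a block. The SE is the fold change divided by the root of F. Log2 CPM used a prior count of 2. Ratios were tested by exact permutation. Named were the 10 members, up to 2 other vesicle genes of smallest p in each direction per comparison, and the 3 genes most like each member. Same-numbered libraries deviated together in every pair only in E17.5 CX (correlation 0.113 to 0.759). In E17.5 HIP, E17.5 CB and P7 CX 5 of 6 pairs had a correlation over 0.1 (medians 0.335, 0.292 and 0.168). It was 4 of 6 in P7 CB and 1 of 6 in P7 HIP. In adults it was 4 of 5 in CX and CB and 3 of 5 in HIP. The reported genotype fits used no pairing in any dataset, and the replicate block was an alternative. Alternatives were DESeq2 1.42.0, upper-quartile scaling, no filter, a likelihood ratio test, RUVs factors, a replicate block, a block by mouse-name prefix, an Xist covariate, the 2 mice put back, and each library left out. The code was tested on simulated data.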

Additional observations from a re-analysis of the deposited data

Results flagged for a closer look

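Of 180 sets of libraries, 10 genes in 18 groups, 13 (7.22%) held a library whose gap to its neighbour was large for the group's range by Dixon's criterion, which chance meets in about 1 in 20 groups. In P7 CX it was WT replicate 4 for Syn1 (239 CPM) and Vamp2 (431 CPM). In adult CB it was WT replicate 3 for Snap25 (2168 CPM, low), Vamp1 (232 CPM) and Slc17a7 (586 CPM), and WT replicate 2 for Slc17a6 (8.04 CPM, low). Adult CX had Cul3+/- replicate 4 with 80.5 CPM of Syt2 and 111 CPM of Vamp1. Cul3+/- replicate 3 of E17.5 CB had 87.7 CPM of Syn2 and 111 CPM of Slc17a6. The others were Slc17a6 in P7 HIP WT replicate 6 (84.9 CPM) and P7 CB Cul3+/- replicate 1 (100 CPM, low), and Slc17a7 in P7 CB WT replicate 3 (83.1 CPM).

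The change from E17.5 to adult differed between regions for 14 of 20 gene and region pairs by the test of the difference itself in edgeR, 2 higher and 5 lower in CB (all genes 32.7% and 33.9%) and 1 higher and 6 lower in HIP (all genes 21.9% and 22.4%). Most genes tested in CB were thus called, and the share of the 10 genes called there was near that of all genes. Against CX, the log2 difference in CB was −2.95 for Syt1, −2.20 for Slc17a6, −1.49 for Syn2, −1.47 for Syp, −1.34 for Syn1, 0.63 for Snap25 and 1.89 for Slc17a7. In HIP it was −2.24 for Syt2, −1.37 for Slc17a6, −1.24 for Syn1, −1.03 for Syn2, −0.61 for Vamp1, −0.47 for Syp and 0.35 for Snap25.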

How the results depend on the processing

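The fold change of the gene with the smallest p in each genotype dataset kept its direction, and the counts of genes called between periods, regions and their differences stayed within 1.5 times the reported ones under every alternative run. The genotype counts of 0 changed under RUVs, a correction by factors estimated from replicates. With 5 factors 2 genes were called in E17.5 HIP, Syn1 (−0.54, adjusted p = 0.0792) and Vamp2 (−0.35, adjusted p = 0.0452), 1 in adult CB, Slc17a6 (0.61, adjusted p = 0.0461), and 1 in adult HIP, Syn1 (0.21, adjusted p = 0.0435). With 3 factors 1 was called in adult HIP, Syn1 (0.22, adjusted p = 0.0994). The cause was not tested. The share of all genes called in the RUVs fits is not given. These counts are therefore not read as a trait of the genes named. Other scalings moved the median of all genes by at most 0.07.

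With single libraries left out, the genotype counts stayed at 0. Uncalled fold changes near 0 turned sign, such as Vamp2 in P7 HIP (0.10, −0.08 without Cul3+/- replicate 3), Syn1 in P7 CB (0.05, −0.02 without Cul3+/- replicate 3) and Vamp2 in E17.5 CB (−0.02, 0.02 without Cul3+/- replicate 4). Counts of genes called ranged from 8 to 10 in CX from P7 to adult, 7 to 8 in CB from E17.5 to P7, 7 to 8 for the change in CB against CX and 6 to 9 for that in HIP. Between regions they were 9 to 10 for P7 HIP and CB against CX and adult HIP against CX, 8 to 9 for adult CB against CX and 7 to 8 for adult CB against HIP, and 16 to 17 ratio steps between periods were called. The fold change of the gene with the smallest p ranged from −0.49 to −0.15 (Vamp2, E17.5 CX), −1.5 to −0.83 (Syn1, E17.5 HIP), −0.31 to −0.18 (Syn1, E17.5 CB), −0.28 to −0.17 (Slc17a7, P7 CX), −0.22 to −0.11 (Syp, P7 HIP), 0.01 to 0.14 (Vamp2, P7 CB), 0.03 to 0.07 (Syp, adult CX), 0.12 to 0.32 (Syn1, adult HIP) and −0.18 to −0.11 (Syt1, adult CB).

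With the replicate number as a block in edgeR, Vamp2 in E17.5 CX was −0.34 (adjusted p = 0.404) against −0.39 (adjusted p = 0.991) in the reported fit without it. Same-numbered libraries deviated together in that dataset, and the block changed no count of calls in any. In the other 8 datasets at least 1 pair had a correlation of 0.1 or less, though most pairs were over 0.1 except in P7 HIP.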

Other observations

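In adult HIP Slc17a6 had the widest spread of the 10 genes, with a coefficient of variation of 57.8% in WT and 42.6% in Cul3+/- mice and values from 7.48 to 35.8 CPM over 10 libraries. Among 11364 genes, picked after their values were seen, the neuropeptide gene Nts ran with it (r = 0.98), from 1.75 to 13.0 CPM, as did Vwc2l (r = 0.99, 4.43 to 14.9 CPM) and Nxph3 (r = 0.98, 3.82 to 22.6 CPM). These correlations are descriptions over 10 libraries of 1 period and region.

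Across the libraries used, 31 of 10341 genes had r over 0.9 with the deviations of Syn1, again picked after their values were seen. Next to Vamp2 these included Slc25a23 (0.95), a mitochondrial carrier, and Shank1 (0.94), a scaffold of the postsynaptic density.

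In the 2 adult mice left out, the 10 genes lay outside the range of the other adult libraries of their region in 1 of 20 values in CX, 2 of 20 in CB and 3 of 20 in HIP.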
